A study of Mus musculus with 2 samples.

Results

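The mitochondrial genome transcripts are the products of the 37 genes on mouse chrM, which were chosen by their position on chrM (GENCODE M21 annotation, genome build GRCm38 or mm10). They comprise 13 mRNAs, 2 rRNAs and 22 tRNAs, and each gene has 1 annotated transcript. They make up 37 of the 129311 IDs counted in each library. RNA-seq was performed in 2 libraries, replicates 1 and 2, each from a handful of differentiated female germline stem cells (FGSCs) of CD-1 mice. FGSCs are proliferating germ cells of the ovary that are kept in culture. In the paper they were grown on STO feeder cells, which derive from mouse embryos, before differentiation. Both libraries had the same treatment, 10 μM retinoic acid and 10 ng/mL BMP4 for 3 days without GDNF, EGF and LIF, with granulosa cells, which surround the oocyte in the follicle, as the layer below them. Polyadenylated RNA was captured with an oligo-dT primer and amplified by a Smart-seq2 protocol. No second condition was analysed here, so no difference between conditions was tested. The labels do not state that the replicates came from separate cultures, so their spread may be technical.

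Mitochondrial DNA is a small circle that is transcribed on both strands into long precursors. The tRNAs lie between most of the other genes, and their excision releases the rRNAs and mRNAs, most of which then receive a short poly(A) tail. The rRNAs build the mitochondrial ribosome, and the mRNAs encode core subunits of respiratory complexes I, III, IV and V. Oocytes and their precursors depend on this genome, which is passed on through the mother.

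Only 24 of the 37 genes, the rRNAs and tRNAs, were listed under their own Ensembl transcript ID. The genes of the mRNAs are inferred, since the mRNAs were listed under protein accessions that no table used here pairs with a gene. The 37 IDs stood on consecutive lines, and 23 of 23 neighbouring pairs of mitochondrial Ensembl IDs followed the order of the genome. The accessions between them were as many in each interval as the protein-coding genes annotated there. For 6 mRNAs (mt-Nd1, mt-Nd2, mt-Co1, mt-Co2, mt-Nd3 and mt-Cytb), a single accession stood between Ensembl IDs, such as Q9MD59 between mt-Tm and mt-Tw, where mt-Nd2 is the only protein-coding gene. The other 7 were told apart by listed order alone, in the runs mt-Atp8, mt-Atp6 and mt-Co3, mt-Nd4l and mt-Nd4, and mt-Nd5 and mt-Nd6. The values of these 7 genes therefore rest on that order, whereas the sum of a run does not.

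The sequences shown here, taken from the GENCODE M21 transcripts of GRCm38, belong to the genes and copies compared below. The first 45 bases of mt-Co2 (chrM:7013-7057, plus strand) and of Gm28661 (chr1:24615521-24615565, minus strand), an annotated pseudogene that is a nuclear copy of it, are the same.
mt-Co2: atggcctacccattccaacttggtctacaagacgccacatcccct
Gm28661: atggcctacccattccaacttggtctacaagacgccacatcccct
The first 45 bases of mt-Nd3 (chrM:9459-9503, plus strand) and of its nuclear copy Gm28438 (chr1:24613075-24613119, minus strand) differ at the base in capitals, T3C, counted from 1 at the start of mt-Nd3.
mt-Nd3: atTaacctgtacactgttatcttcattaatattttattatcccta
Gm28438: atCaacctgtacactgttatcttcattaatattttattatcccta
mt-Atp8 and mt-Atp6 overlap by 43 bases, shown in capitals after the 10 bases of mt-Atp8 that precede them (chrM:7917-7969, plus strand).
mt-Atp8 end: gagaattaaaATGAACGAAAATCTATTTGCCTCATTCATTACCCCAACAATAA
The tRNA with most counts was mt-Tp (chrM:15356-15422, minus strand), followed by mt-Tc (chrM:5192-5257, minus strand) and mt-Tq (chrM:3772-3842, minus strand), each shown whole.
mt-Tp: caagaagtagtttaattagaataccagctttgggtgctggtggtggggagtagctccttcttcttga
mt-Tc: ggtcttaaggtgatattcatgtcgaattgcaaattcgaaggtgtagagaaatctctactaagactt
mt-Tq: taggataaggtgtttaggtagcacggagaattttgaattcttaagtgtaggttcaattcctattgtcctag

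The libraries differed in depth. Replicate 1 held 1517151 counts and replicate 2 held 12442, so that a single count, 1 read, was worth 0.659 counts per 1000000 (CPM) in the first library and 80.4 CPM in the second. A level was taken as shown from 3 counts on, which is 1.98 CPM in replicate 1 and 241.1 CPM in replicate 2. The label of the cells was set against marker genes. By the rule used for them, counts on IDs that belong to 1 gene, 20.6% of nuclear protein-coding genes reached 3 counts in replicate 1 and 2.43% in replicate 2, so that a marker without a count in replicate 2 says little. Of 11 germ cell markers, 0 reached 3 counts in either replicate, and 9 of the 11, among them Ddx4 and Dazl, were listed at 0 on every ID that could be theirs. Ifitm3 had no count on IDs of its own but could hold up to 11921 counts in replicate 1 and 8 in replicate 2 on IDs shared with neighbouring genes. The paper, by contrast, detected Stra8 and Sycp3 in FGSCs treated with retinoic acid by RT-PCR, and Stra8 also by immunofluorescence. Here Stra8 was among the 9, and Sycp3 could hold up to 2 counts in replicate 1 and 0 in replicate 2 on shared IDs. The summed level of the germ cell markers on their own IDs was 0 counts in both replicates. The 7 granulosa cell markers summed to 453 and 3 counts, and 1 reached 3 counts in replicate 1 and 0 in replicate 2. Kitl alone held 453 and 1 of these counts and Fshr 0 and 2, while the rest of that list was at 0 on IDs of their own. On shared IDs, Foxl2 could hold up to 18 counts in replicate 1 and Inha up to 1 in replicate 2. For 7 fibroblast markers the sums were 4378 and 11 counts, and 5 reached 3 counts in replicate 1 and 2 did in replicate 2. Dcn had 2281 and 0 counts, Col1a2 910 and 6, Pdgfra 726 and 2, Col1a1 401 and 0, and Col3a1 58 and 3. Vim and Thy1 had only 1 and 0 counts each. The part of other cells in the mitochondrial counts was not tested.

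The mitochondrial genes held 180107 counts in replicate 1 and 973 in replicate 2. This was 11.9% of all counts in replicate 1, with a 95% Wilson confidence interval of 11.8% to 11.9%, and 7.82% in replicate 2, with an interval of 7.36% to 8.31%. The mean share was 9.85% ± 2.86 (SD, n = 2). The intervals did not overlap, but they cover counting error only, and PCR reads without molecular identifiers are not independent molecules. In libraries of several cells, fewer cells with many mitochondrial transcripts and fewer transcripts per cell cannot be told apart. Without the rRNA genes the mean share was 5.98%.

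At least 3 counts were reached by 18 of the 37 genes in replicate 1 and by 9 in replicate 2. Over all listed IDs, 7.69% reached 3 counts in replicate 1 and 0.891% in replicate 2. The median of the 37 genes was 2 counts in replicate 1 and 0 in replicate 2, against 0 and 0 over all IDs. The 9 genes shown in replicate 2 were both rRNAs and 7 mRNAs, and each of them was also shown in replicate 1. No count in either replicate was found for 14 genes, all of them tRNAs. Thus the rRNAs, the mRNAs and the tRNAs differed widely in what was counted, and within the mRNAs the genes of one stretch of the genome were low.

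Taken as a class, the rRNAs were the most abundant per length, mainly through mt-Rnr2. mt-Rnr2, the RNA of the large mitochondrial ribosomal subunit (chrM:1094-2675), had 50576 counts in replicate 1 and 489 in replicate 2, more than any other ID in each library. Its level, as counts per kilobase of the gene and per 1000000 counts (FPKM), was 21072 in replicate 1 and 24844 in replicate 2. mt-Rnr1, the RNA of the small subunit (chrM:70-1024), had 4794 and 76 counts, an FPKM of 3309 and 6396. Both subunits hold 1 molecule of their RNA, yet the counts of mt-Rnr2 exceeded those of mt-Rnr1 by 10.5-fold in replicate 1 (95% exact binomial interval 10.2 to 10.9) and by 6.43-fold in replicate 2 (5.04 to 8.31). Per kilobase the ratios were 6.37 and 3.88.

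Together the rRNAs took 30.7% of the mitochondrial counts in replicate 1. In replicate 2 they took 58.1%, with a 95% Wilson interval of 54.9% to 61.1%. The mRNAs took 69.0% and 41.9%. The mean rRNA share was 44.4% ± 19.3 (SD, n = 2), so the replicates lay far apart in this measure. Their part in the whole library was closer, with a mean of 4.10% ± 0.630 of all counts for the rRNAs, against 5.74% ± 3.48 for the mRNAs (SD, n = 2).

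**Figure D1:**
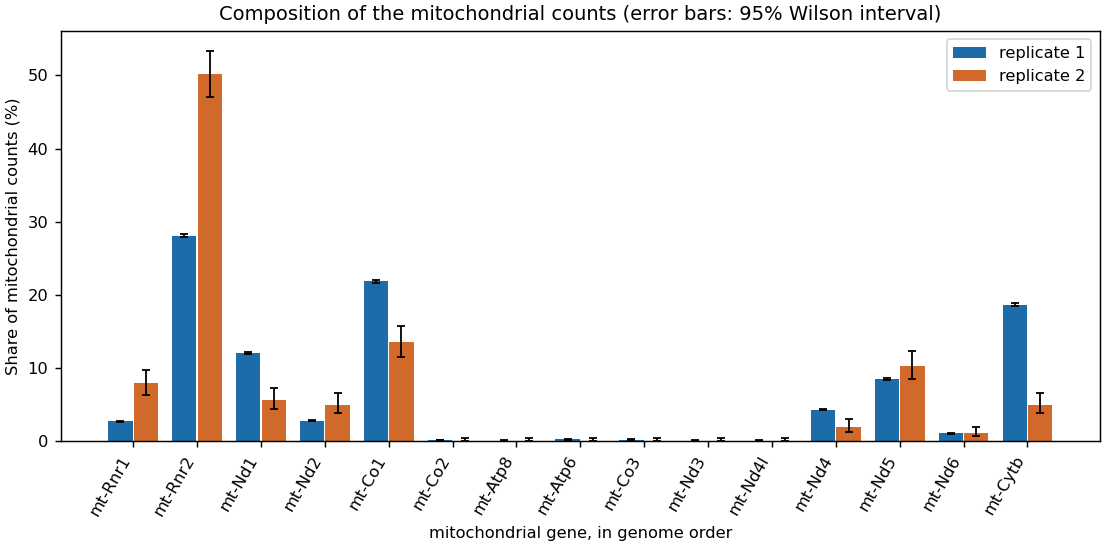
Share of the mitochondrial counts (y axis, percent) of each rRNA and mRNA gene (x axis, genome order) in replicate 1 (blue, 180107 counts) and replicate 2 (orange, 973 counts), with 95% Wilson intervals as error bars. mt-Rnr2 was highest in both, at 28.1% and 50.3%, and the stretch from mt-Co2 to mt-Nd4l lay near 0.

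Complex I, NADH dehydrogenase, takes electrons from NADH, and 7 of its subunits are encoded here. mt-Nd1 (chrM:2751-3707) had 21537 counts in replicate 1 and 54 in replicate 2, an FPKM of 14834 and 4535. mt-Nd2 (chrM:3914-4951) had 4890 and 48 counts, an FPKM of 3105 and 3717. mt-Nd5 (chrM:11742-13565), the longest mitochondrial mRNA gene, had 15148 and 99 counts, an FPKM of 5474 and 4362. Thus mt-Nd1 was the highest complex I gene of replicate 1, whereas mt-Nd1, mt-Nd5 and mt-Nd2 lay within a narrow range in replicate 2. mt-Nd4 (chrM:10167-11544) had 7633 and 18 counts, an FPKM of 3651 and 1050. mt-Nd3 (chrM:9459-9806) had 5 counts in replicate 1 and 0 in replicate 2, and mt-Nd4l (chrM:9877-10173) had 3 and 0. Both of these short genes were at or near the smallest level taken as shown.

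mt-Nd6 (chrM:13552-14070), the only mRNA gene on the minus strand, had 1734 counts in replicate 1 and 10 in replicate 2, an FPKM of 2202 and 1549. Its transcript is known to carry little or no poly(A) tail, unlike most of the other mRNAs. The paper describes adaptor ligation to sheared cDNA and no step that keeps the strand, and the counting setting is not stated. The RNA of mt-Nd6 and RNA from the opposite strand therefore cannot be told apart. Its neighbour mt-Nd5, with which it shares 14 bases, had 8.74 times its counts in replicate 1 (95% exact interval 8.31 to 9.19) and 9.90 times in replicate 2 (5.16 to 21.3). The intervals of this ratio overlapped between the replicates. The complex I genes together took 41.0% of the mitochondrial mRNA counts in replicate 1 and 56.1% in replicate 2, with a mean of 48.6% ± 10.7 (SD, n = 2).

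Complex III passes electrons to cytochrome c, and mt-Cytb (chrM:14145-15288), its cytochrome b, is the only subunit encoded here. It had 33481 counts in replicate 1 and 48 in replicate 2, an FPKM of 19291 and 3372. It was the third most counted ID of replicate 1. Its share of the mitochondrial counts was 18.6% (95% Wilson interval 18.4% to 18.8%) in replicate 1 and 4.93% (3.74% to 6.48%) in replicate 2, a larger difference in percentage points than for any other mRNA. Against mt-Nd1, it had 1.55 times the counts in replicate 1 (95% exact interval 1.53 to 1.58) and 0.889 times in replicate 2 (0.590 to 1.34).

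Complex IV, cytochrome c oxidase, reduces oxygen, and its catalytic core is formed by 3 subunits encoded here. mt-Co1 (chrM:5328-6872), which carries the site of oxygen reduction, had 39240 counts in replicate 1 and 131 in replicate 2, an FPKM of 16741 and 6815. It was the most counted mitochondrial mRNA in both libraries. mt-Co2 (chrM:7013-7696) had 154 and 0 counts and mt-Co3 (chrM:8607-9390) had 233 and 0 counts, an FPKM of 148.4 and 195.9 in replicate 1. The counts of mt-Co1 thus exceeded those of mt-Co2 by 254.8-fold in replicate 1 (95% exact interval 217.5 to 300.5) and those of mt-Co3 by 168.4-fold (148.1 to 192.4). With the counts of the chromosome 1 copies described below added to the genes they copy, these ratios were 84.5 (77.1 to 92.8) and 43.4 (40.6 to 46.4) in replicate 1, and 9.47 (5.73 to 16.7) and 4.35 (3.03 to 6.40) in replicate 2. Adding the copies thus changed the size of the difference between mt-Co1 and the other subunits but not its direction. Reads with several possible positions that were left out of the counting are not recovered by this sum, so it cannot settle the direction. The share of complex IV in the mitochondrial mRNA counts was 31.9% in replicate 1 and 32.1% in replicate 2, and 39240 of its 39627 counts in replicate 1 lay on mt-Co1. With the copies added, its mean share was 36.2%.

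Complex V, the ATP synthase, has 2 subunits encoded here, which form part of its membrane portion. mt-Atp6 (chrM:7927-8607) had 270 counts in replicate 1 and 0 in replicate 2. mt-Atp8 (chrM:7766-7969) had 1 count in replicate 1 and 0 in replicate 2, below the smallest level taken as shown, an FPKM of 9.69 and 1182. With mt-Co3, which follows them, the run held 504 counts in replicate 1 and 0 in replicate 2, a sum that does not depend on how its accessions were told apart.

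**Figure D2:**
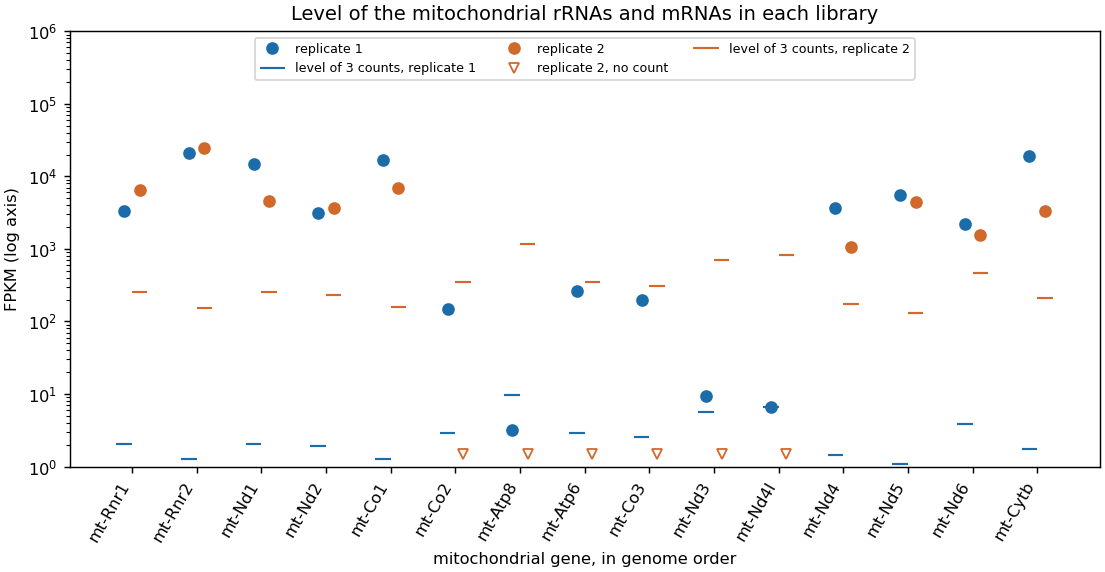
Level of each rRNA and mRNA gene as FPKM (y axis, log axis) in genome order (x axis) for replicate 1 (blue) and replicate 2 (orange). Short lines mark the level of 3 counts in each library and open triangles mark genes without a count, which were the 6 genes from mt-Co2 to mt-Nd4l in replicate 2.

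The order of the levels was largely shared by the replicates. Across the 13 mRNAs, Pearson's r between the libraries on the log2(FPKM + 1) scale was 0.903 and Spearman's rho was 0.870, given as a description because genes are not independent replicates. In part this came from the 6 mRNAs at 0 in replicate 2, which were also the 6 lowest in replicate 1. Among the 7 other mRNAs the order by FPKM differed, and parts of it changed with the treatment of shared sequence described below. Replicate 1 ran from mt-Cytb through mt-Co1, mt-Nd1, mt-Nd5, mt-Nd4 and mt-Nd2 to mt-Nd6, and replicate 2 ran from mt-Co1 through mt-Nd1, mt-Nd5, mt-Nd2, mt-Cytb and mt-Nd6 to mt-Nd4. Of the 15 rRNA and mRNA genes, 7 had shares of the mitochondrial counts whose 95% Wilson intervals did not overlap. mt-Rnr1, mt-Rnr2 and mt-Nd2 took a larger share in replicate 2, and mt-Nd1, mt-Co1, mt-Nd4 and mt-Cytb took a larger share in replicate 1. For the 8 others, the intervals overlapped. For the 7 mRNAs with a count in both replicates, the median log2 ratio of CPM, replicate 2 to replicate 1, was -1.30. This value depended on the scaling, and was -4.47 with edgeR TMM factors and -4.23 with DESeq2 size factors. Over all 13 mRNAs with a pseudocount of 1 CPM it was -1.71. The spread among the mRNAs is thus a difference between 2 libraries of the same condition, and its cause was not tested. Length also ran along with the counts, with a Spearman rho of 0.874 across the 13 mRNAs in replicate 1 and 0.831 in replicate 2. Runs of at least 6 A within the gene, to which an oligo-dT primer can pair, were counted too. The 6 mRNAs at 0 in replicate 2 held none, so every mRNA with such a run was among the 7 others. Among those 7, the number of runs did not follow the order of the levels. mt-Rnr2 held 4 such runs, mt-Nd2 held 3, mt-Nd4 and mt-Nd5 held 2 each, and mt-Nd1 and mt-Co1 held 1 each. mt-Cytb, the highest mitochondrial mRNA of replicate 1 by FPKM, held 0, as did mt-Rnr1 and mt-Nd6. Whether these runs bear on the levels was not tested.

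The 6 low mRNAs lie next to each other on the genome, from mt-Co2 to mt-Nd4l, with only tRNAs between them. Together they held 666 counts in replicate 1, which is 0.370% of the mitochondrial counts, and 0 in replicate 2. There, 0 of 973 counts allows a share of up to 0.308% by the limit of 3 counts and of up to 0.393% by the 95% Wilson interval, which holds the share of replicate 1. The highest of the 6, mt-Atp6, had 0.150% in replicate 1, and a share of that size was not detectable at the depth of replicate 2. The nuclear copies of 5 of these genes, described below, did have counts in replicate 2, 95 against 0 on the genes. Whether depth alone gave the zeros was not tested. The neighbouring mRNAs mt-Co1 and mt-Nd4 were counted in both libraries.

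Near-identical copies of mitochondrial sequence lie in the nuclear genome, and reads from such copies and from the mitochondrion are hard to tell apart. Stretches of 31 bases (31-mers) of each gene were therefore searched on both strands in the GENCODE M21 transcripts of all other genes. All 654 31-mers of mt-Co2 occurred in a nuclear transcript, as did 99.9% of those of mt-Co3, 99.5% of mt-Atp6, 98.9% of mt-Nd4l and 98.1% of mt-Nd3. For mt-Co1 this was 63.9% and for mt-Nd4 62.8%. Of the remaining rRNA and mRNA genes, mt-Nd5 had 16.8%, mt-Nd2 13.5%, mt-Atp8 7.47%, mt-Nd6 7.36%, mt-Cytb 6.55% and mt-Rnr2 2.71%, and mt-Rnr1 and mt-Nd1 had none. The 5 genes with over 95% of shared 31-mers were thus all among the 6 low mRNAs. Across the 13 mRNAs, Spearman's rho between this share and FPKM was -0.50 in replicate 1 and -0.62 in replicate 2, a description across genes that share a library and a genome stretch. The exception was mt-Atp8, with 1 count and few shared 31-mers. The chromosome 1 interval of 233 bases between the copies of mt-Atp6 and mt-Co2 holds no transcript and was not compared. Per kilobase of 31-mers that are not shared, mt-Co1 stood at 47284 CPM and mt-Cytb at 21199 in replicate 1, and mt-Nd4 at 10022 and mt-Nd5 at 6692. In replicate 2, mt-Nd5 stood at 5333 and mt-Nd1 at 4682, and mt-Nd4 at 2882 and mt-Nd6 at 1774. Each of these pairs was ordered the other way by FPKM. The other mRNAs outside the 6 low ones kept their ranks. This scaling holds only if no count came from shared 31-mers, which is not known.

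The shared sequence lay mainly in 7 annotated pseudogenes side by side on the minus strand of chromosome 1 (chr1:24611535-24616197), which follow the order of the mitochondrial genes from mt-Co1 to mt-Nd4. Over the bases that could be aligned, 5 of the 7 copies had no substitution against the mitochondrial gene. Gm28438, the copy of mt-Nd3, had the single substitution T3C shown above. Gm29216, the copy of the end of mt-Co1, had 4 substitutions and 2 gap bases near its start, A1059G, A1060G, C1062A and A1066T, counted from 1 at the start of mt-Co1. These are reference sequences, and the sequence of the CD-1 strain was not compared.

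The copies had counts of their own. In replicate 1, Gm28437 (chr1:24613189-24613971) had 674 counts against 233 of mt-Co3. Gm10925 (chr1:24613974-24614651) had 666 counts against 270 of mt-Atp6, and Gm28661 (chr1:24614885-24615565) had 312 against 154 of mt-Co2. Gm28438 (chr1:24612775-24613119) had 657 counts against 5 of mt-Nd3, the most unequal of these pairs, and Gm10222 (chr1:24612407-24612700) had 23 against 3 of mt-Nd4l. In each of these 5 pairs the nuclear copy had more counts than the mitochondrial gene. By contrast, Gm29216 had 129 counts against 39240 of mt-Co1, and Gm28439 (chr1:24611535-24612410) had 61 against 7633 of mt-Nd4, both of which have long stretches without a copy.

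In replicate 2, Gm10925 had 40 counts, Gm28437 had 37, Gm29216 had 30 and Gm28661 had 17, while Gm28439 had 2, Gm28438 had 1 and Gm10222 had 0. The mitochondrial partners mt-Atp6, mt-Co3 and mt-Co2 had no count there. Over the 5 pairs from mt-Co2 to mt-Nd4l, the nuclear copies had 2332 counts and the mitochondrial genes 665 in replicate 1, a nuclear share of 77.8% (95% Wilson interval 76.3% to 79.3%). In replicate 2 the copies had 95 counts and the genes 0, a nuclear share of 100% (from 96.1%). All 7 copies summed to 0.166% of the first library and to 1.02% of the second. How reads with several possible positions were counted is not given in the sources used here. Where a copy is identical, a read within it does not tell whether the RNA came from the nucleus or the mitochondrion, so the levels of these 5 mitochondrial genes are uncertain. With the copy's counts added, mt-Atp6 would stand at an FPKM of 905.9 in replicate 1 and 4721 in replicate 2, mt-Co3 at 762.5 and 3793, and mt-Co2 at 449.1 and 1998. By contrast, mt-Nd3 would stand higher in replicate 1, at 1254 against 231 in replicate 2, where the sum was 1 count. For mt-Nd4l the values would be 57.7 and 0. In replicate 1 these sums still lay below every mRNA outside the stretch, whereas in replicate 2 mt-Atp6 then lay between mt-Co1 and mt-Nd1, and mt-Co3 between mt-Nd5 and mt-Nd2.

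**Figure D3:**
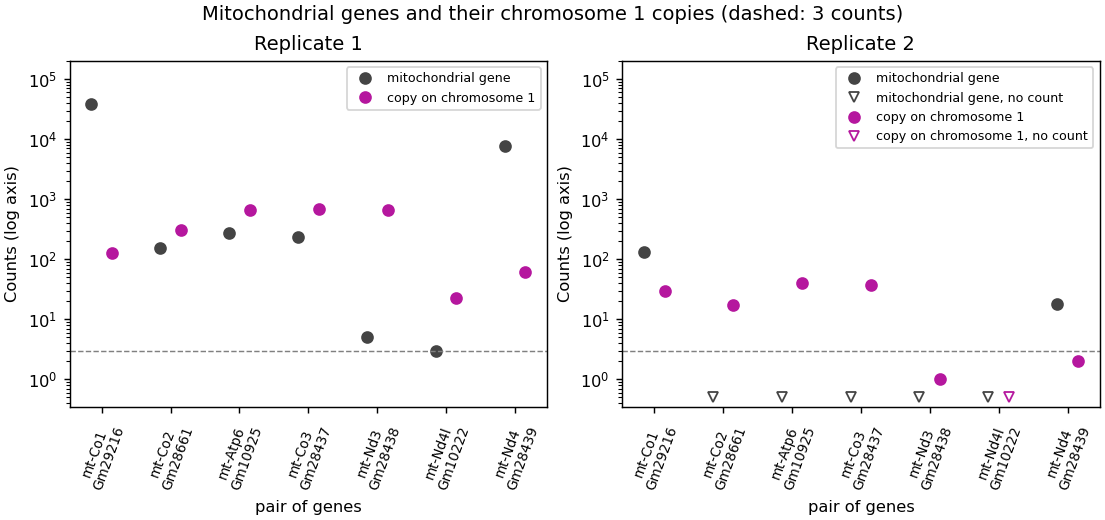
Counts (y axis, log axis) of 7 mitochondrial genes (grey) and of their copies on chromosome 1 (magenta), with pairs on the x axis in mitochondrial order, in replicate 1 (left) and replicate 2 (right). The dashed line is 3 counts and open triangles mark genes without a count. From mt-Co2 to mt-Nd4l the copy had more counts than the gene in replicate 1.

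Outside chromosome 1, the most counted copy was Gm13340 on chromosome 2 (chr2:22588103-22589647), which shares 45.2% of the 31-mers of mt-Co1 and had 96 counts in replicate 1 and 6 in replicate 2. Of 24 nuclear transcripts with a shared 31-mer, 23 were listed, and 13 of these had a count in either library. All of them together held 2647 counts in replicate 1 and 135 in replicate 2, or 0.174% and 1.09% of all counts. Adding them would leave the mitochondrial total almost as it was in replicate 1. In replicate 2 the change would be larger, with 135 counts added to 973.

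The tRNAs carry the amino acids for mitochondrial translation and are 59 to 75 bases long. The 22 tRNA genes held 408 counts in replicate 1, which is 0.227% of the mitochondrial counts, and 0 in replicate 2, where the limit of 3 counts allows a share of up to 0.308% and the Wilson interval one of up to 0.393%. Of these, 370 lay on mt-Tp, the tRNA for proline, which is the last gene before the control region of the genome. Its FPKM of 3640 in replicate 1 was close to that of mt-Nd4. mt-Tc, for cysteine, had 15 counts, mt-Tq, for glutamine, had 14, and mt-Tn, for asparagine, had 3. The other 18 tRNA genes had between 0 and 2 counts, below the level taken as shown.

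All 4 tRNA genes with at least 3 counts are annotated on the minus strand. The 8 tRNA genes of the minus strand held 405 counts in replicate 1, and 6 of them had a count. The 14 tRNA genes of the plus strand, the strand of most rRNA and mRNA genes, held 3 counts, on mt-Tm and mt-Tt. mt-Tn and mt-Tc lie on either side of 32 unannotated bases, where the origin of light-strand replication is known to lie, and mt-Tp ends at the control region. mt-Tf, at the other end of the control region and on the plus strand, had no count. Because no step that keeps the strand is described, counts on a minus-strand tRNA gene and RNA read across it from the plus strand cannot be told apart. All genes annotated on the minus strand, with mt-Nd6, took 1.19% of the mitochondrial counts in replicate 1 and 1.03% in replicate 2.

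**Figure D4:**
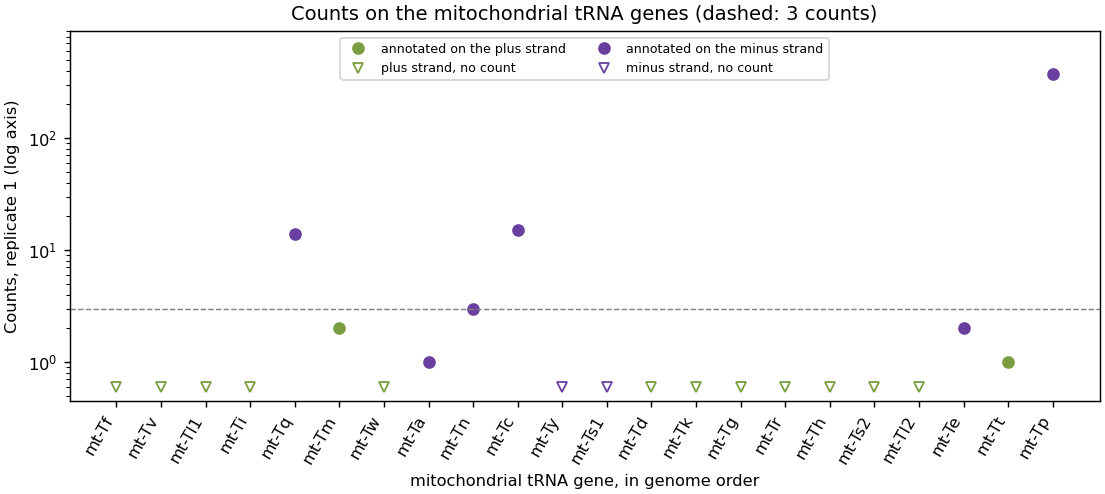
Counts of replicate 1 (y axis, log axis) on the 22 mitochondrial tRNA genes in genome order (x axis), coloured by annotated strand. Filled points have a count, open triangles have none, and the dashed line is 3 counts. mt-Tp stood at 370, and the 4 genes at 3 or more are on the minus strand. Replicate 2 had no count on any of these genes.

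Nuclear genes needed to express and maintain the mitochondrial genome were set beside it, counted only on IDs that belong to 1 gene. Of 21911 nuclear protein-coding genes, 20.6% reached 3 counts by this rule in replicate 1 and 2.43% in replicate 2. Of 10 genes of mitochondrial transcription, 2 reached 3 counts in replicate 1 and 0 in replicate 2. Tfam, which packages the DNA and starts transcription, had 146 counts in replicate 1 and 0 in replicate 2, Mterf4 had 6 and 0 and Mterf3 had 2 and 0. Polrmt, the mitochondrial RNA polymerase, was listed at 0 in both. With every ID that could be theirs, 9 of the 10 would reach 3 counts in replicate 1 and 0 in replicate 2, so most of this list cannot be resolved.

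Of 19 genes of mitochondrial RNA processing and stability, 3 reached 3 counts in replicate 1 and 0 in replicate 2. Rexo2, an exonuclease of short RNA, had 169 counts in replicate 1 and 0 in replicate 2. Pde12, which removes poly(A) tails, had 22 and 2, Grsf1, an RNA-binding protein, had 18 and 0, and Fastkd3 had 1 and 0. With every possible ID, 6 of the 19 would reach 3 counts in replicate 1 and 1 in replicate 2. Of 10 genes of mitochondrial DNA maintenance, 2 reached 3 counts in replicate 1, Top1mt with 5 and Dguok with 4. Polg2, a subunit of the DNA polymerase, had 2 counts in replicate 1 and 4 in replicate 2, as the only gene of this list with 3 counts there by the same rule. With every possible ID, 5 of the 10 would reach 3 counts in replicate 1 and 2 in replicate 2.

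Of 78 proteins of the mitochondrial ribosome, the partners of mt-Rnr1 and mt-Rnr2, 34 reached 3 counts in replicate 1 and 5 in replicate 2, with 2 in both. With every possible ID, 58 would do so in replicate 1 and 8 in replicate 2. On IDs of 1 gene, Mrpl39 had most with 974 counts in replicate 1, followed by Mrps22 with 613, Mrpl35 with 292, Mrpl44 with 276 and Mrps15 with 238, and all 5 were at 0 in replicate 2. In replicate 2, Mrpl23 had 8 counts, Mrps27 had 6 (and up to 759 in replicate 1 if every ID that could be its own is taken), Mrpl33 had 5, and Mrpl21 and Mrpl16 had 3 each. By the same rule, the median gene of each of these 4 lists was at 0 in both replicates, as was that of all nuclear protein-coding genes.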

How the data were processed

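RNA-seq of 2 libraries of differentiated FGSCs was analysed. The deposited values are counts per ID in whole numbers, as the authors made them, neither normalized nor pooled. The submitters' processing notes name Trim Galore, HISAT2 2.2.1, featureCounts and mm10, whereas the paper's methods name TopHat and Cufflinks. The annotation, the strand setting and the treatment of reads with several hits are not given in the sources used here. CPM and FPKM were computed from the counts with all 129311 IDs as the total and the annotated gene length. The mRNA accessions were placed by their listed position, and nuclear accessions were used where all candidates between the neighbouring Ensembl IDs belonged to 1 gene, which held for 58.1% of 53245. Shares have 95% Wilson intervals, and ratios of counts have exact binomial intervals. Replicate 1 held 1517151 counts and replicate 2 held 12442, which limits the precision of replicate 2. With 1 group, no test was run, and edgeR and DESeq2 gave scaling factors only. Alternatives were other denominators, count minimums, lengths, scalings, pooling and each replicate left out. Named were all rRNAs and mRNAs, tRNAs with at least 3 counts, and of each nuclear list the 5 genes with most counts in replicate 1 and those with 3 in replicate 2, and the 5 most counted nuclear copies. Gm10222, Gm28439 and Gm13340 were named after their values were seen. The members and lists were chosen with earlier results of these data known. The interval step was tested on simulated data. Python 3.11.15, numpy 2.4.6, scipy 1.17.1, pandas 2.3.3, matplotlib 3.10.9, R 4.3.3, edgeR 4.0.16 and DESeq2 1.42.0 were used.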

Additional observations from a re-analysis of the deposited data

How the results depend on the processing

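The mean mitochondrial share of counts (9.85%) was 17.7% with Ensembl IDs only, where the mRNAs are left out, and 5.98% without the rRNA genes. The complex IV share of the mRNA counts (32.0%) was 26.4% per kilobase and 36.2% with the chromosome 1 copies added, an alternative chosen after seeing the data. The ratio of mt-Rnr2 to mt-Rnr1 (8.49) was 5.13 per kilobase. The median log2 ratio of replicate 2 to replicate 1 (-1.30) was -4.47 with edgeR TMM factors, -4.23 with DESeq2 size factors, which rest on the 1726 IDs counted in both libraries, and -1.71 over all 13 mRNAs with a pseudocount of 1 CPM. Without one replicate, the mitochondrial share ranged from 7.82% to 11.9%, the rRNA share from 30.7% to 58.1%, the complex I share from 41.0% to 56.1%, the complex IV share from 31.9% to 32.1%, the ratio of the rRNAs from 6.43 to 10.5, and the number of genes with 3 counts from 9 to 18. Leaving out 1 of 2 replicates cannot move a mean by more than the SD, so these ranges show the spread of the replicates and not stability. Of the 28 other alternatives for these measures, 20 moved a mean by less than the SD, the median log2 ratio by less than its counting error, or a number of genes by no more than 1.5 times. Those 20 include the alternatives with pooled counts, which say nothing on stability either. A pooled share or ratio lies between the values of the replicates, so it cannot move the mean by the SD. No paired analysis was possible because there is only 1 group. Precision is limited by the depth of replicate 2, with 12442 counts.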
